A study of Mus musculus with 13 samples.

Results

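Milk proteins and secreted or apical defense proteins of the mammary gland were followed in RNA-seq of cell lines grown out of mouse mammary tumours. The 9 genes were taken by name from the 23845 gene symbols of the deposited tables, and all 9 were found there. They are the casein genes Csn1s1, Csn2 and Csn3, the whey genes Wap and Lalba, the defense genes Ltf, Lcn2 and Wfdc18, and the apical mucin gene Muc1. The series comes from a study of JNK, the c-Jun N-terminal kinase family, in HER2-driven breast cancer, where HER2 is the receptor encoded by Erbb2. It holds 6 wild-type (WT) lines and 7 lines labelled JNK knockout, all of strain FVBN/J and all called primary tumour lines. The labels give neither the removed JNK genes or exons, nor the driver of any transgene, nor the age of the animals. WT and knockout titles begin with different letters, and the genotype and any difference in origin or handling that goes with these titles cannot be told apart. WT replicates 4 and 5 have titles that share a number, and the labels do not say whether they came from 1 animal. The p-values given here measure the spread between lines, which need not be that between animals.

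In the nursing gland, the luminal cells of the alveoli secrete caseins, which pack calcium and phosphate into micelles, and whey proteins, which stay in solution. Prolactin acts through its receptor, the kinase JAK2 and the factor STAT5 to switch these genes on, together with glucocorticoid and the luminal factor ELF5. The same epithelium secretes defense proteins: lactoferrin (Ltf) binds iron, lipocalin 2 (Lcn2) binds the iron carriers of bacteria, and Wfdc18 encodes a small protein with the disulfide core domain also found in whey acidic protein (Wap). Lcn2 and Ltf are also stored in granules of neutrophils. Per the labels' protocols, the lines were grown at first in 2% serum on collagen I, then in 10% serum with 20 ng/ml EGF and 10 μg/ml insulin. The protocol names neither prolactin nor a glucocorticoid among the additions.

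Sequencing depth was 38298600 to 46689800 expected counts in a line. As a check of the labels, Mapk8 and Mapk9, which encode JNK1 and JNK2, had every knockout line below every WT line, with log2 fold changes of -2.37 (SE 0.19, adjusted p = 9.1e-05) and -1.63 (SE 0.19, adjusted p = 0.00091). All lines held epithelial markers, at levels that differed between lines. The summed level of 20 luminal markers was 7506 to 9862 TPM in WT and 1451 to 5055 TPM in knockout lines, and that of 12 basal markers 288 to 771 TPM and 794 to 24402 TPM. TPM is the transcript level scaled for gene length, so it can be compared between genes. In bulk RNA, fewer cells of a type and less RNA per cell cannot be told apart. Most blood cell markers were at or near 0. Elane, an enzyme of neutrophil granules, had 0 reads in all 13 lines, and the leukocyte gene Ptprc had at most 7 reads in a line. The summed level of 13 neutrophil markers was 6.88 to 74.6 TPM in WT and 25.9 to 70.1 TPM in knockout lines, most of it S100a8, which keratinocytes also make. Its partner S100a9, also made by both cell types, was too low to be tested. It was at most 0.13 TPM in WT and 0.47 to 8.93 TPM in knockout lines, every one of which lay above every WT line, and its part in the results on Ltf and Lcn2 was not tested. The summed level of 9 macrophage markers was at most 33.6 TPM in WT and 19.1 TPM in knockout lines, led by the lysosomal gene Cd68, and those of 8 lymphocyte, 5 endothelial and 5 adipocyte markers were at most 0.21, 1.11 and 3.44 TPM. The 8 fibroblast markers summed to 143 TPM in the highest WT line, replicate 3, and to 15.2 TPM in the highest knockout line. Knockout replicate 2 stood apart with the lowest luminal and the highest basal marker level. This line also had 33.4 TPM of the epithelial gene Epcam, against at least 234 TPM in every other line. Vim and Zeb1, genes of mesenchymal cells, were 3774 and 21.5 TPM in it and at most 705 and 3.79 TPM in the others. Epcam, Vim and Zeb1 were picked here after their values were seen.

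Csn1s1, Csn2 and Csn3 lie in the casein cluster of chromosome 5. In the RefSeq annotation of GRCm38.p6, Csn1s1 spans 87666208 to 87682578, Csn2 87692619 to 87699429 and Csn3 87925579 to 87932550, so that 10.0 kb separate Csn1s1 from Csn2 and 226.2 kb separate Csn2 from Csn3. The promoters of Csn1s1 and Csn2 are shown because these neighbours were both highest in knockout replicate 7 while Csn3 was highest in WT replicate 3. Those of Ltf and Lcn2 are shown because both genes were high in the same 3 knockout lines. Each sequence holds the 250 bases before a start site in RefSeq's promoter table for GRCm38.p6, which had an entry for 8 of the 9 genes, all but Csn3. Capitals mark TTCNNNGAA, the motif of STAT factors, in the casein promoters and TTGCNNAA, a motif of C/EBP factors, in the others.
Csn1s1, chr5:87665958-87666207, plus strand: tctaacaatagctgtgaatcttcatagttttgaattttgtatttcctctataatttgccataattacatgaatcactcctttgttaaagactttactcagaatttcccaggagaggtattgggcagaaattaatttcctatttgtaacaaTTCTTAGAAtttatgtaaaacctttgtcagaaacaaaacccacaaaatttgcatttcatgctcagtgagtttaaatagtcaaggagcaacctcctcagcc
Csn2, chr5:87699426-87699675, minus strand: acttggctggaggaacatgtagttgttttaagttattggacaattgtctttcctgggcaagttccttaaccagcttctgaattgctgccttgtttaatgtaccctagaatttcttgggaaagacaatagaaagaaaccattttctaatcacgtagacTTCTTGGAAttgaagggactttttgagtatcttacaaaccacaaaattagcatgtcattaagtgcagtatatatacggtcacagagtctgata
Ltf, chr9:111019042-111019291, plus strand: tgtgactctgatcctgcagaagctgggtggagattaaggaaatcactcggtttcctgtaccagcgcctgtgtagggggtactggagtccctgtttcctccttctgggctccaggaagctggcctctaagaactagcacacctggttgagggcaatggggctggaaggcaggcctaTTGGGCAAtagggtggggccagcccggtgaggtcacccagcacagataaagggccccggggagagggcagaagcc
Lcn2, chr2:32387740-32387989, minus strand: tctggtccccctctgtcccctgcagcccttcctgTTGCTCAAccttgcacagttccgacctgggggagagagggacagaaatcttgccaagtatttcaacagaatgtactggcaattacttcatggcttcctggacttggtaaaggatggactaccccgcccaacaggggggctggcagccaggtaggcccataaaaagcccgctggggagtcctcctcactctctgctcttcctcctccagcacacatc

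Both strands were searched in these windows. TTCNNNGAA began 100 bases before the start of Csn1s1 and 93 bases before that of Csn2, and was found in none of the other 6 windows. It occurs in 7.02% of the 32851 promoter windows of the same length. TTGCNNAA, found in 9.56% of them, began 75 bases before the start of Ltf, where it reads on the opposite strand, and 216 bases before that of Lcn2, and was in none of the other 6. A motif of NF-kB factors (GGGA, any 4 bases, CC), found in 17.6% of windows, was in none of the 8. A match says that these letters are there and not that a factor binds.

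Csn3, Wfdc18, Lcn2, Ltf and Csn1s1, the 5 members that had a mean of at least 1 TPM and passed the filter on low counts, varied far more between lines of the same genotype than most genes. Csn3 had the largest spread within groups of all 11936 tested genes with a mean of at least 1 TPM, with an SD of 4.28 on the log2(TPM + 1) scale against a median of 0.41. Wfdc18 was in place 4 (SD 2.89), Lcn2 in place 15 (2.52), Ltf in place 18 (2.41) and Csn1s1 in place 38 (2.24). Together the 9 genes made up between 0.0135% of all TPM, in knockout replicate 2, and 4.84%, in WT replicate 3. The plot of levels by line shows this spread.

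**Figure D1:**
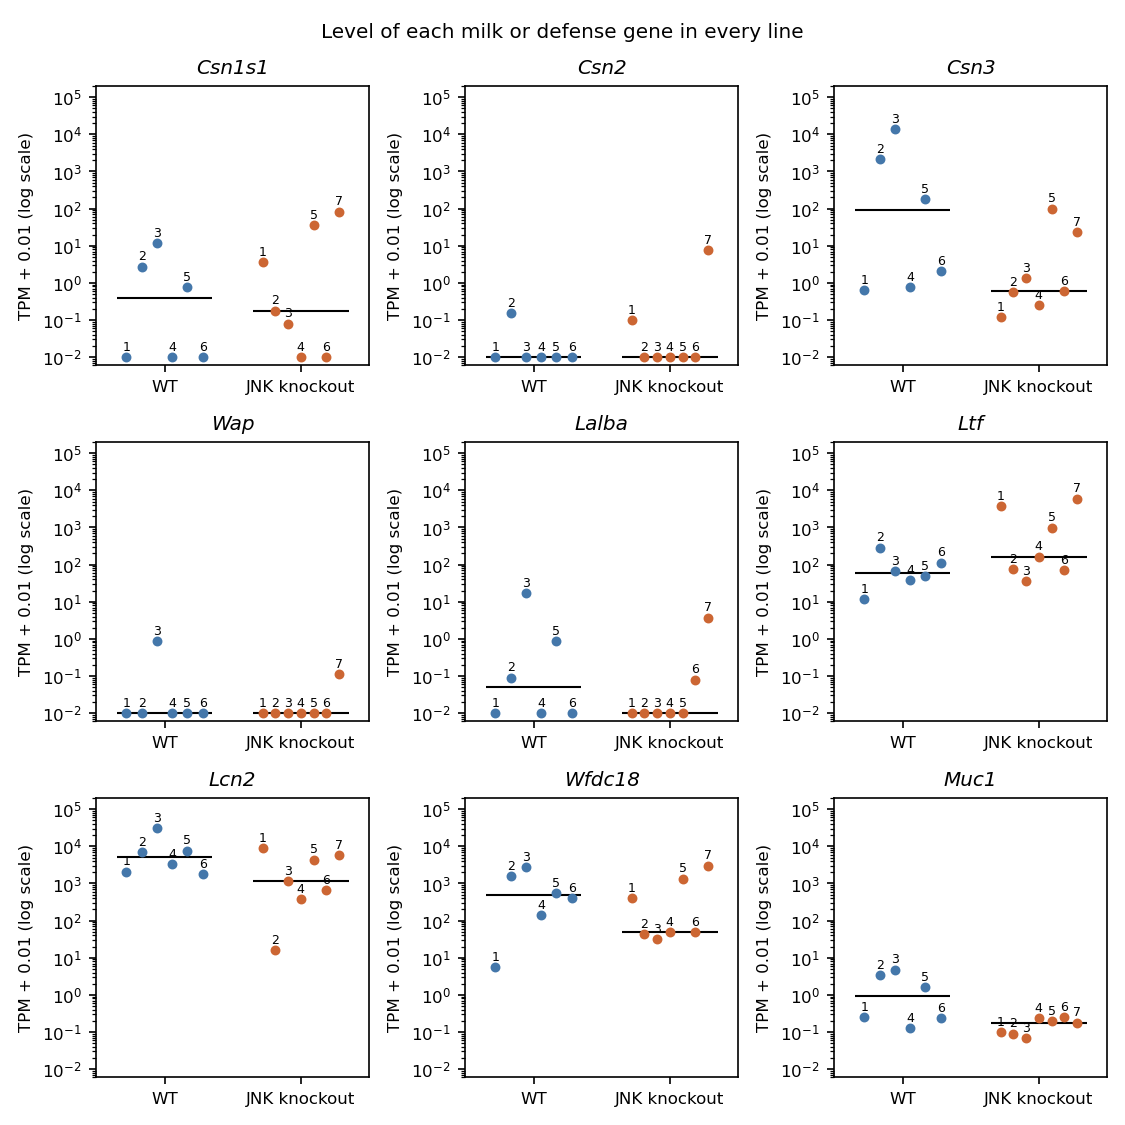
Level of the 9 genes in each line, as TPM + 0.01 on a log axis, with WT lines in blue, JNK knockout lines in orange, replicate numbers above the points and a black line at the group median. Csn3 runs from 0.11 TPM in knockout replicate 1 to 14059 TPM in WT replicate 3, and Ltf is highest in knockout replicates 7, 1 and 5.

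Milk protein genes were read almost entirely from Csn3 in the WT lines. Csn3 encodes kappa-casein, which coats the casein micelle and keeps it in suspension. Its level in WT lines was 0.63, 2144, 14059, 0.77, 178 and 2.10 TPM in replicates 1 to 6, and in knockout lines it was 0.11, 0.55, 1.36, 0.24, 99.5, 0.59 and 23.4 TPM in replicates 1 to 7. WT replicates 3, 2 and 5 were high, the other WT lines lay among most knockout lines, and the groups overlapped. In WT replicate 3 Csn3 was 1.41% of all TPM and the gene in place 3 of the whole transcriptome. Its mean was 2298 ± 4794 CPM in WT (SD, n = 6) against 21.4 ± 46.9 CPM after knockout (SD, n = 7), where CPM are counts scaled to a common library size. Means below are given with the same SD and n, and reads are expected counts rounded to whole numbers. The log2 fold change, knockout minus WT throughout, was -6.75 (SE 2.50), which did not pass the test (edgeR quasi-likelihood test, adjusted p = 0.11). WT replicate 3 held 85.2% of the WT reads, and without it the log2 fold change was -4.08 (adjusted p = 0.25).

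Csn1s1, which encodes alpha-S1-casein, a calcium-binding core protein of the micelle, was highest in knockout lines. It was 3.65, 35.1 and 83.5 TPM in knockout replicates 1, 5 and 7 and at most 0.17 TPM in the other 4. In WT lines it was 11.8, 2.73 and 0.76 TPM in replicates 3, 2 and 5, the lines that were high in Csn3, and at 0 reads in the other 3. The groups overlapped, and Csn1s1 did not pass at an adjusted p of 0.37 (log2 fold change 3.06, SE 2.05; 5.03 with an adjusted p of 0.20 without WT replicate 3). The balance of the caseins differed between the lines that made them. Csn3 exceeded Csn1s1 by 234 to 1187 times in TPM in WT replicates 5, 2 and 3, while the ratio was 0.030, 2.83 and 0.28 in knockout replicates 1, 5 and 7. Among the 5 milk protein genes, Csn3 took 99.1% to 100% of the TPM in the WT lines and 2.86%, 73.9% and 19.8% in those 3 knockout lines. In the other 4 knockout lines the share was 76.4% to 100%, of a summed level of at most 1.43 TPM, as it was at most 2.10 TPM in WT replicates 1, 4 and 6. These ratios were chosen after the values were seen and were not tested.

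Csn2, Wap and Lalba did not have enough reads to pass the filter on low counts. Csn2 encodes beta-casein, a major milk casein of the mouse, and had 3 reads in WT, all in replicate 2, and 206 after knockout, of which 204 were in replicate 7 (7.62 TPM). Lalba encodes alpha-lactalbumin, which directs galactosyltransferase to make lactose. It was 17.5 TPM in WT replicate 3 and 3.71 TPM in knockout replicate 7, and at most 0.85 TPM in every other line. Wap, the whey acidic protein of rodent milk, had 7 reads in WT replicate 3, 1 read in knockout replicate 7 and 0 in the other 11 lines. Each of the 3 genes therefore had its reads in 1 or a few lines. Fitted with no filter, with 5.89% of 18208 genes called, none of them passed (adjusted p from 0.14 for Csn2 to 0.28 for Wap and 0.44 for Lalba), and the sign of each turned when 1 line was left out. Csn2 went from a log2 fold change of 5.47 to -0.38 without knockout replicate 7, and without WT replicate 3 Lalba went from -2.42 to 1.65 and Wap from -2.37 to 1.10.

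**Figure D2:**
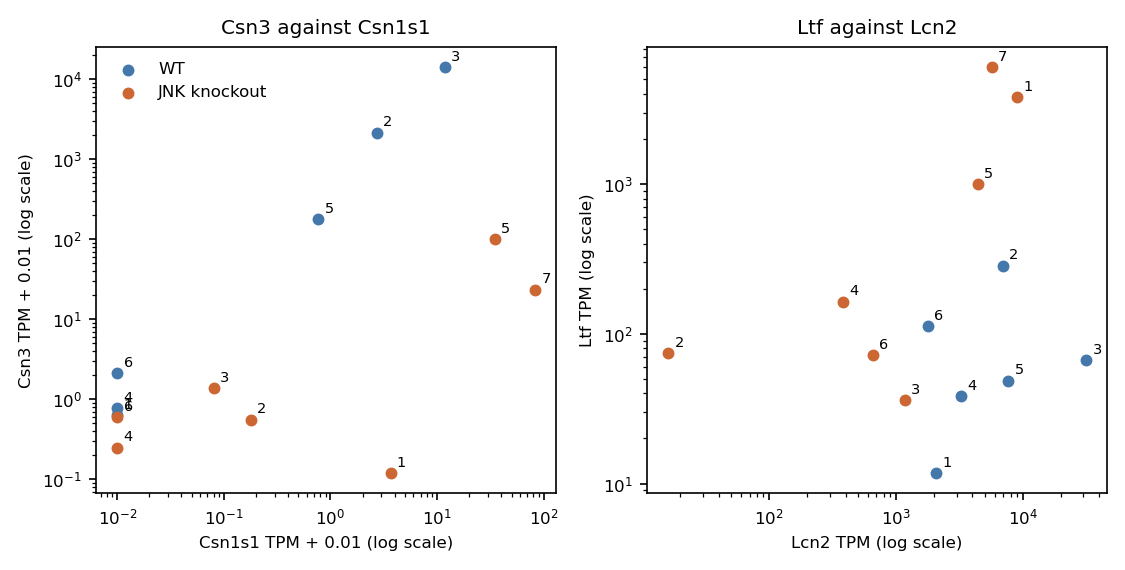
Csn3 against Csn1s1, as TPM + 0.01, and Ltf against Lcn2, as TPM, both on log axes, with 1 point per line and its replicate number (WT replicates 1 and 4 and knockout replicate 6 lie on top of each other in the first panel). WT replicates 2, 3 and 5 hold more Csn3 than knockout replicates 1, 5 and 7. Lines with 0 reads of Csn1s1 hold at most 2.10 TPM of Csn3 in both groups. Knockout replicates 1, 5 and 7 hold more Ltf than WT lines at like levels of Lcn2.

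Lactoferrin (Ltf, chromosome 9, 111019292 to 111042766) was high in 3 knockout lines. It was 3784, 994 and 6014 TPM in knockout replicates 1, 5 and 7, and between 36.3 and 164 TPM in the other 4. In WT lines the lowest, median and highest levels were 11.8, 57.8 and 285 TPM. The 3 high knockout lines lay above every WT line, while the other 4 lay within the WT range. In knockout replicate 7 Ltf was the gene in place 9 by TPM. Mean Ltf was 136 ± 142 CPM in WT against 2735 ± 3942 CPM after knockout. With a log2 fold change of 4.33 (SE 1.32), the adjusted p of 0.059 missed the threshold of 0.05. The difference passed without knockout replicate 2 (log2 fold change 4.54, adjusted p = 0.045), without knockout replicate 6 (4.55, adjusted p = 0.044) and in DESeq2 (adjusted p = 0.00058). In the other edgeR fits without 1 line the adjusted p ran from 0.051 to 0.11. It was 0.11 without knockout replicate 7, and likewise without WT replicate 4 or 5. In limma-voom the log2 fold change was 2.80 (adjusted p = 0.18).

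Lcn2 (chromosome 2, 32384637 to 32387739) was among the most abundant transcripts of many lines. In WT lines its lowest, median and highest levels were 1796, 5133 and 31533 TPM, and in replicate 3 it was the gene with the highest TPM of all. In knockout lines it was 8991, 4398 and 5705 TPM in replicates 1, 5 and 7, 1175, 385 and 661 TPM in replicates 3, 4 and 6, and 16.0 TPM in replicate 2. The 3 knockout lines high in Ltf and Csn1s1 thus lay within the WT range of Lcn2, and the other 4 lay below every WT line. Mean Lcn2 was 3357 ± 4520 CPM in WT against 1344 ± 1470 CPM after knockout, which did not pass at an adjusted p of 0.45 (log2 fold change -1.32, SE 1.05). It was -0.21 without WT replicate 3, and 0.017 (adjusted p = 0.99) without both WT replicate 3 and knockout replicate 2. In TPM, Ltf was 0.0021 to 0.063 of Lcn2 in the WT lines and 0.031 to 4.65 of it in the knockout lines. Knockout replicate 3, at 0.031, lay within the WT range of this ratio and the other 6 knockout lines above it. Knockout replicate 2, the line with the lowest Lcn2, had the highest ratio and replicate 7 the next, at 1.05. The ratio of Ltf to Lcn2 was chosen after the values were seen and was not tested.

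Wfdc18 (chromosome 11, 83709004 to 83711360) had nearly equal group means. It was 5.63, 1591, 2750, 139, 544 and 411 TPM in WT replicates 1 to 6. In knockout replicates 1, 5 and 7 it was 394, 1342 and 3023 TPM, and in the other 4 between 31.5 and 49.7 TPM. Mean Wfdc18 was 174 ± 212 CPM in WT against 161 ± 245 CPM after knockout, with an adjusted p of 0.97 (log2 fold change -0.11, SE 1.27). The approximate 95% interval of the log2 fold change, -2.59 to 2.37, includes large differences in both directions, so the lines do not show that the groups are alike. The sign turned in 7 of the 13 fits without 1 line.

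Muc1 (chromosome 3, 89229056 to 89233381), which encodes a mucin of the apical membrane that is also carried on milk fat globules, was the member that changed. It was lower in knockout lines, with 60 reads in all 7 together against 507 in the 6 WT lines. Among the 6 members tested, 0 were called higher and 1 lower, where 8.51% of all 13058 genes were called, 4.33% higher and 4.17% lower. None of the 6 had groups whose CPM ranges did not overlap, against 4.05% of all genes. Its level was low in every line. In WT lines it was 0.24, 3.45, 4.76, 0.12, 1.62 and 0.23 TPM in replicates 1 to 6, and in knockout lines the lowest, median and highest were 0.06, 0.17 and 0.24 TPM. The WT lines above the knockout range were replicates 3, 2 and 5, which were also the 3 highest WT lines in Csn3, Csn1s1, Lalba, Lcn2 and Wfdc18. The other 3 WT lines, with 6 to 12 reads, lay within the knockout range of 3 to 14 reads. The log2 fold change was -3.29 (SE 0.85, adjusted p = 0.031). Leaving out each line in turn kept the call in 8 of 13 fits and lost it without WT replicate 2 (adjusted p = 0.057) or 3 (-2.60, adjusted p = 0.066) and without knockout replicate 1, 3 or 7. It was also lost in limma-voom (adjusted p = 0.20) and on log2(TPM + 1) (log2 fold change -0.94, adjusted p = 0.11).

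**Figure D3:**
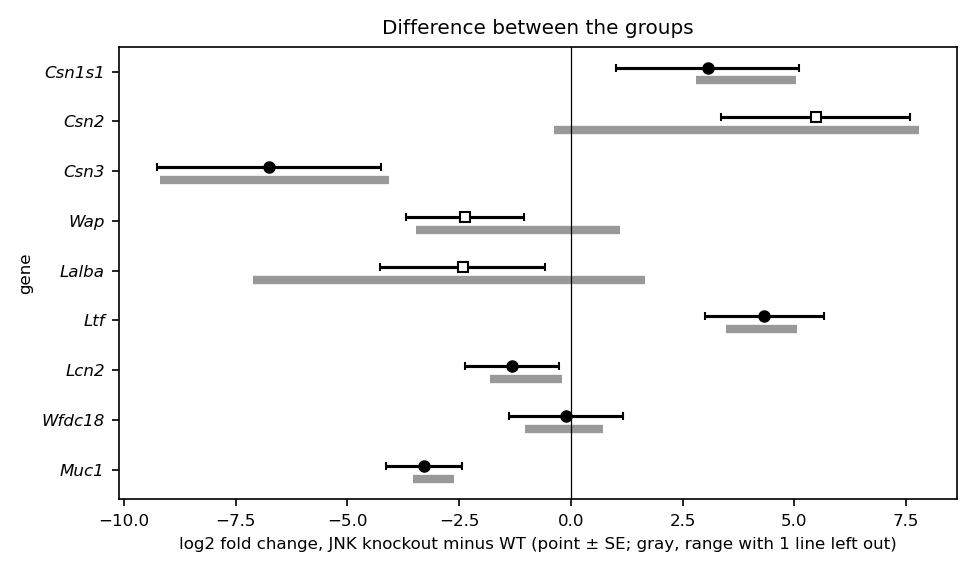
Log2 fold change of each gene, knockout minus WT, as a point with its SE, and below it in gray the range over the fits that left out 1 line. Filled points are genes that passed the filter on low counts and open squares are genes fitted with no filter. The gray bars of Csn2, Wap, Lalba and Wfdc18 cross 0, while those of Muc1 (-3.54 to -2.60) and Ltf (3.47 to 5.05) do not.

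Within the WT group, replicates 2, 3 and 5 were the 3 highest lines in 6 of the 9 genes (Csn1s1, Csn3, Lalba, Lcn2, Muc1 and Wfdc18). Within the knockout group, replicates 1, 5 and 7 were the 3 highest in 4 genes (Csn1s1, Ltf, Lcn2 and Wfdc18). The share of all genes with the same highest lines was not computed, so these counts do not set the members apart from other genes. Lalba had only 1 read in WT replicate 2. The WT pair with a shared number in its titles, replicates 4 and 5, fell on different sides, with 0.77 and 178 TPM of Csn3 and 0.12 and 1.62 TPM of Muc1.

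Of 30 other genes of milk secretion 18 were tested, 1 rose and 1 fell. Of all genes tested, 4.33% were called higher and 4.17% lower. The median log2 fold change of the 18 was -0.29, against 0.0076 over all genes. Lpl, lipoprotein lipase, which frees fatty acids for uptake, fell from 8.11 ± 4.14 to 1.08 ± 0.63 CPM (log2 fold change -2.90, SE 0.49, adjusted p = 0.0052). Slc34a2, a phosphate transporter of the apical membrane, rose from 1.42 ± 1.70 to 29.7 ± 28.5 CPM (log2 fold change 4.38, SE 1.05, adjusted p = 0.023), with 28.4, 8.53 and 24.8 TPM in knockout replicates 1, 5 and 7 and at most 5.78 TPM in the others. Each of the 13 fits without 1 line called both genes.

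Several genes named here were chosen after their values were seen. Trf encodes transferrin, an iron carrier that the mouse mammary gland secretes into milk. It was 1055, 14454 and 391 TPM in WT replicates 2, 3 and 5, at most 9.64 TPM in the other WT lines, 116 TPM in knockout replicate 7 and at most 1.69 TPM in the other knockout lines. It missed the threshold (edgeR adjusted p = 0.089, log2 fold change -7.14, SE 2.48) and was called by DESeq2. Trf was thus high in the same WT lines as Csn3, but stayed low in knockout replicate 5, where Csn3 was 99.5 TPM. The mucin gene Muc15 was 29.2, 161 and 36.2 TPM in WT replicates 2, 3 and 5 and at most 8.74 TPM in the other WT lines. In knockout lines it was 29.7 TPM in replicate 7 and at most 7.96 TPM in the others (adjusted p = 0.15). Other genes of the list ran differently, as Plin2, which coats lipid droplets, was 212, 135 and 194 TPM in WT replicates 2, 3 and 5 and 573 to 605 TPM in the other WT lines. Of the remaining caseins, Csn1s2a had 22 reads in knockout replicate 7, 3 in replicate 5, 1 in replicate 1 and 0 in all other lines. Csn1s2b had 2 and 8 reads in WT replicates 2 and 3, 3, 1 and 7 reads in knockout replicates 5, 6 and 7, and 0 in the rest.

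**Figure D4:**
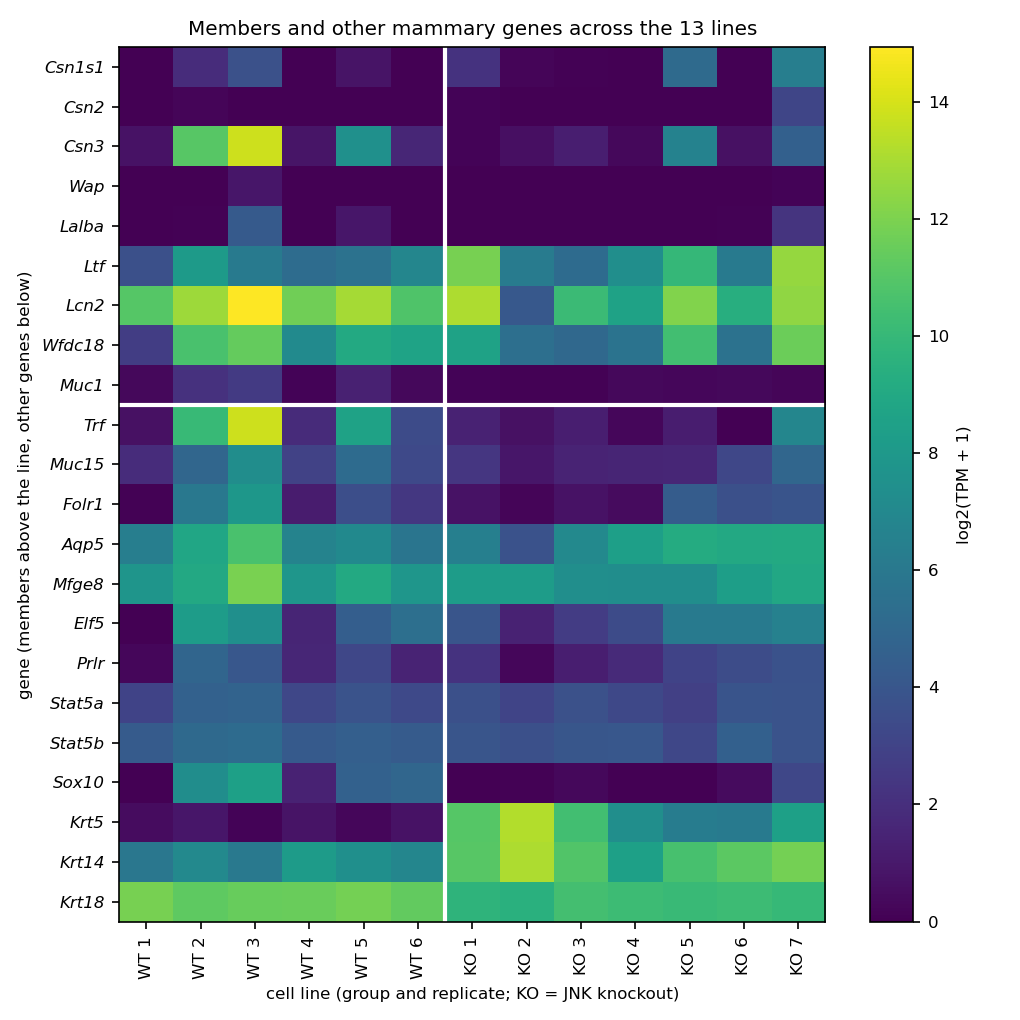
Log2(TPM + 1) of the 9 genes (above the white line) and of 13 other genes in the 13 lines, with WT lines left and knockout lines (KO) right of the vertical line and brighter colours for higher levels. WT 2, 3 and 5 are bright for Csn3 and Trf, KO 1, 5 and 7 for Ltf, and all knockout lines for the basal keratin gene Krt5. The 13 other genes were chosen after their values were seen.

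Genes of the lactogenic pathway were present in lines of both groups. Of 21 such genes 20 were tested, 1 rose and 1 fell, where 8.51% of all genes were called in either direction. Their median log2 fold change was -0.23. Prlr, the prolactin receptor, was 27.9, 15.8 and 7.90 TPM in WT replicates 2, 3 and 5 and at most 2.01 TPM in the other WT lines, and it ran from 0.18 to 12.6 TPM in knockout lines (adjusted p = 0.76). Elf5 was highest in WT replicates 2 and 3, at 300 and 172 TPM, and was 14.6, 67.7 and 92.1 TPM in knockout replicates 1, 5 and 7 (adjusted p = 0.66). Elf5 was 21.1 TPM in WT replicate 5 and 42.4 TPM in WT replicate 6. Knockout replicate 6 had 66.5 TPM of Elf5 and 9.99 TPM of Prlr with 0.59 TPM of Csn3 and 0 reads of Csn1s1. The part of Elf5 and Prlr in the casein levels was not tested. Stat5a ran from 7.07 to 25.8 TPM in WT and from 6.06 to 13.6 TPM in knockout lines (adjusted p = 0.59).

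The lactogenic gene with the lowest adjusted p was Socs2, a feedback inhibitor of growth hormone and prolactin signalling that STAT5 induces. Its mean fell from 176 ± 59.6 to 47.9 ± 18.6 CPM, with an adjusted p of 0.0028 (log2 fold change -1.88, SE 0.28). The highest knockout line lay below the lowest WT line, and each of the 13 fits without 1 line called it. In WT replicates 1 to 6 Socs2 was 135, 109, 238, 145, 164 and 133 TPM, where replicates 1, 4 and 6 had 0 reads of Csn1s1. In knockout lines it was 17.4 to 56.5 TPM, highest in replicate 7, which was also highest in Csn1s1. The relation of Socs2 to the caseins was not tested. Ybx1, a nucleic acid binding protein, rose from 399 ± 61.4 to 733 ± 305 CPM (log2 fold change 0.88, adjusted p = 0.047), which 1 of those 13 fits called. The summed luminal and basal marker levels differed between the groups, as given above. Of 18 luminal markers tested 0 were called higher and 2 lower, and of 11 basal markers 5 higher and 0 lower. The shares over all genes were 4.33% higher and 4.17% lower. At an unadjusted p under 0.05, 6 basal markers were higher and 2 lower. Sox10 and Ehf were picked after their values were seen. The basal gene Sox10 was 0 to 353 TPM in WT and at most 8.14 TPM in knockout lines. Ehf, a luminal marker, was 11.0 to 110 TPM in WT and 14.2 to 249 TPM in knockout lines. The part of the markers in the differences of other genes was not tested.

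None of the other secreted defense genes that were tested passed, as Ltf did not. S100a9, whose levels are given above, was too low to be tested. Of 30 antimicrobial and acute phase genes 29 were in the tables, 17 were tested and 0 were called by edgeR, against 8.51% of all genes. The median log2 fold change of the 17 was 0.73. At an unadjusted p under 0.05, 2 were higher and 0 lower, while DESeq2 called 1 (Hp) and limma-voom 0. The smallest p were those of Hp, which encodes haptoglobin (log2 fold change 3.27, adjusted p = 0.089), and Slpi, a secreted inhibitor of proteases (1.51, adjusted p = 0.16). Slpi was 169 TPM in WT replicate 3, the lowest WT line, in which Lcn2 was highest. Pglyrp1, a peptidoglycan-binding defense protein, and Lbp, which binds bacterial lipopolysaccharide, were added after their values were seen. Pglyrp1 was 248 and 700 TPM in WT replicates 2 and 3, 176, 87.9 and 180 TPM in knockout replicates 1, 5 and 7, and at most 74.3 TPM in every other line. Lbp was 145, 142 and 226 TPM in those 3 knockout lines at most 52.4 TPM in the other knockout lines, and 4.74 to 190 TPM in WT lines, highest in replicate 3.

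Of 29 genes of NF-kB and STAT3 signalling, which induce Lcn2 in inflamed epithelia, 27 were tested, 2 rose and 1 fell. Of all genes, 8.51% were called in either direction. The median log2 fold change of the 27 was 0.029. The neutrophil chemokine Cxcl5 rose from 52.1 ± 39.1 to 718 ± 760 CPM (adjusted p = 0.022, log2 fold change 3.78, SE 0.90). It was highest in knockout replicates 1 and 7, at 2233 and 1433 TPM. The cytokine gene Il1a rose from 0.28 ± 0.18 to 32.4 ± 69.7 CPM (adjusted p = 0.016), with 167 TPM in knockout replicate 1 and at most 10.0 TPM in the other knockout lines, and without that line its log2 fold change was 4.45 in place of 6.84. Osmr, the oncostatin M receptor, fell (log2 fold change -1.40, adjusted p = 0.049), which 5 of the 13 fits without 1 line called.

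Among 18 other mucins and apical proteins 17 were in the tables, 11 were tested, 0 rose and 1 fell. Of all genes, 8.51% were called in either direction. The median log2 fold change of the 11 was -0.34. Podxl, a sialomucin of apical membranes, fell from 34.9 ± 37.5 to 2.46 ± 3.36 CPM (log2 fold change -3.82, SE 0.96, adjusted p = 0.028), which 9 of the 13 such fits called. In contrast to Muc1, its level in WT replicate 3 was the lowest of the WT lines, at 1.81 TPM. Of 13 iron and lipocalin receptor genes 9 were tested, 1 rose and 0 fell, beside the same share of all genes. Their median was -0.056. Ftl1, the ferritin light chain, which stores iron, rose from 1039 ± 271 to 2792 ± 1044 CPM (log2 fold change 1.43, SE 0.26, adjusted p = 0.0072) in all 7 knockout lines above every WT line, and pseudogenes of Ftl1 make its counts uncertain. Slc22a17, which encodes a receptor for lipocalin 2, was 0.77 to 10.4 TPM in WT and 0.42 to 11.3 TPM in knockout lines (adjusted p = 0.97).

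The genes most like each member over the 13 lines were found by Spearman's rho of log2 CPM among the 13057 other tested genes, as a description of these lines. For Csn3 they were Tmem246 (0.92), Sptb (0.91) and Rnf144a (0.90), and for Csn1s1 Ntf5 (0.92), Fbxo32 (0.92) and Ugt8a (0.91). For Wfdc18 they were Adcy8 (0.96), Mmaa (0.93) and Cxcr4 (0.92), and for Muc1 Smim19 (0.96), Mmgt2 (0.93) and Mybph (0.93). For Ltf and Lcn2 the highest values were lower, with Ndufb7 (0.88), Bod1 (0.86) and Commd6 (0.86) for Ltf and Suv420h2 (0.87), Tpd52l1 (0.87) and Pepd (0.87) for Lcn2. No member was among the 3 genes most like another member. Maxima picked from 13057 genes over 13 lines can be high without any link between genes. Differences between the members in these values were not tested.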

How the data were processed

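RNA-seq of 13 lines (6 WT, 7 JNK knockout) was used. Tables of expected counts and of TPM were deposited, which the authors made with RSEM after cutadapt trimming, with mm10 and GRCm38 as builds, per the submitters' processing notes. Reads were paired, of 150 bp, per the labels' protocols. The software versions, aligner, annotation release and strand setting were not given in the sources used here. Reads of a gene and an overlapping antisense gene may therefore be mixed.

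Expected counts were rounded to whole numbers, genes were filtered by filterByExpr (13058 of 23845 kept) and libraries scaled by TMM. The groups were compared by edgeR 4.0.16's quasi-likelihood test in R 4.3.3, with the genotype as the only term and Benjamini-Hochberg adjustment over all genes tested at 0.05. An approximate SE was taken as the size of the log2 fold change over the root of its F value. CPM refer to the TMM-scaled library. Members under the filter (Csn2, Wap and Lalba) were read from a fit with no filter. Log2 CPM for rank correlations used a prior count of 2.

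The members, gene lists and alternatives were chosen with earlier results of these data known. The genes named were the 9 members, up to 4 changed genes of each list (or the 2 with the smallest p), the 3 genes most like each member, and Mapk8 and Mapk9. Changed luminal, basal and fibroblast markers were left out of the text, since they served as a check of the lines. Others were chosen after their values were seen, as stated. Alternatives were DESeq2 1.42.0, limma-voom and limma 3.58.1 on log2(TPM + 1) or log2(TPM + 0.1), other scalings, no filter or CPM above 1 in at least 6 lines, each line left out, WT replicates 4 and 5 summed, and WT replicate 3 and knockout replicate 2 left out together. Depth, 38298600 to 46689800 counts per line, limits the precision of genes with few reads.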

Additional observations from a re-analysis of the deposited data

Results flagged for a closer look

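A line far above the others of its group, by Dixon's criterion on TPM, was found in 12 of the 18 sets of a gene and a group. Chance flags about 1 in 20 sets of normally distributed values. These TPM are skewed and hold many zeros, so that rate does not apply to them, and the 3 sets with reads in a single line (Wap in both groups and Csn2 in WT) meet the criterion by construction. WT replicate 3 stood apart for Csn1s1 (11.8 TPM), Csn3 (14059 TPM), Lalba (17.5 TPM), Lcn2 (31533 TPM) and Wap (0.88 TPM, from 7 reads). WT replicate 2 stood apart for Ltf (285 TPM) and Csn2 (0.14 TPM, from 3 reads). Knockout replicate 7 stood apart for Csn1s1 (83.5 TPM), Csn2 (7.62 TPM), Lalba (3.71 TPM) and Wap (0.10 TPM, from 1 read), and knockout replicate 5 for Csn3 (99.5 TPM). Values of Csn2 and Wap rest on 1 to 7 reads in all but knockout replicate 7 for Csn2.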

How the results depend on the processing

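No paired analysis was possible because the labels pair no WT line with a knockout line. The replicate numbers used here run in sample order within each group, and a number found in both groups does not pair the lines. Of the 9 genes, 6 passed the filter and were tested, and 1 of these changed (Muc1). The count of changed members was 0 with limma-voom and on log2(TPM + 1) and log2(TPM + 0.1). It was also 0 with CPM above 1 in at least 6 lines, which left out Muc1 and Csn1s1. Without both WT replicate 3 and knockout replicate 2 it was 0 as well. DESeq2 gave 3 (Csn3, Ltf and Muc1), and the fits with 1 line left out gave 0 to 2. Over all 13058 genes tested 1111 changed (8.51%), 2107 with DESeq2 and 645 to 1228 with 1 line left out. On log2(TPM + 1) 260 were higher and 998 lower, against 566 and 545, and on log2(TPM + 0.1) 297 and 963, with the median of all genes at -0.19 and -0.23. Of the 100 genes of the other lists that were tested 9 changed, 5 with limma-voom and 6 to 13 with 1 line left out. Csn3 passed in DESeq2 (adjusted p = 0.0016) and in no other fit, where adjusted p ran from 0.066 to 0.56. Without both WT replicate 3 and knockout replicate 2 the sign turned for Lcn2 (0.017) and Wfdc18 (0.94). With 1 line left out the log2 fold change ran from -1.02 to 0.72 for Wfdc18, from -0.38 to 7.78 for Csn2, from -3.45 to 1.10 for Wap and from -7.11 to 1.65 for Lalba. Csn1s1, Csn3, Ltf and Muc1 kept their sign in every fit that could test them. Csn1s1 was not tested without knockout replicate 1, 5 or 7, since too few lines then had reads of it. The filter of CPM above 1 in at least 6 lines left it out too. Depth limits Csn2, Wap, Lalba and Muc1.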
